A study of Homo sapiens with 14 samples.

Results

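TFEB, TFE3, MITF and TFEC make up the MiT/TFE family of transcription factors, and their gene loci were examined for GATA3 binding. Any peaks of the 12 lists with at least 1 bp in common were joined, which gave 78999 regions. A region was assigned to a member when it overlapped the hg38 span of the gene plus 50 kb on either side. This gave 52 regions for the 4 genes, out of 20033 protein-coding genes: 25 for MITF, 13 for TFEB, 7 for TFE3 and 7 for TFEC. The family was chosen by the ranks of a region inside TFEB, which had the best median rank over the lists. Its ranks and calls are therefore given as a description, without a test.

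MDA-MB-231 cells, a line from a triple-negative breast cancer, were left untreated and harvested on day 3. GATA3, a zinc-finger factor of luminal breast epithelium, was precipitated with the same GATA3 antibody in all samples. The 6 groups had 2 libraries each: GATA3 wildtype (WT), the point mutants A442M and G444E, and the same 3 forms with FLAG at the C-terminus (WT-FLAG, A442M-FLAG and G444E-FLAG). The tag stabilises GATA3 protein whatever the mutation, according to the design text. The labels do not say how the GATA3 forms were introduced or whether replicates were separate cultures, so the spread between replicates may be technical. No background list stands beside any value, since the 2 samples with empty vector are not analysed here. Peak lists carry no expression, and the cell line's markers were not checked.

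MiT/TFE factors are basic helix-loop-helix leucine zipper proteins that bind DNA as dimers within the family. TFEB and TFE3 switch on genes of lysosomes and autophagy and are held in the cytoplasm by mTORC1 signalling when nutrients are plentiful. MITF is best known as the master regulator of melanocytes, and TFEC is found mainly in myeloid cells.

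The lists held between 25248 and 51694 peaks, each with the authors' score in an unnamed unit. In every group the list of replicate 1 was longer than that of replicate 2. The number of reads is unknown. Replicates of a group shared between 0.541 and 0.607 of the regions that either called. Peaks on unplaced contigs averaged 97 in WT and 66 in A442M libraries, against 15 to 21 in the other 4 groups. Whatever made these libraries differ cannot be told apart from the genotype and tag state of the group.

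The deposited lists hold no sequence, so the bases under the peaks are not shown. The 250 bases before a start site are printed for the starts that the regions below either cover or miss. They come from RefSeq's GRCh38.p14 promoter table, which matched all 4 genes and lists 3 starts for TFEB, 3 for MITF, 2 for TFEC and 1 for TFE3. Capitals mark GATA or its reverse complement TATC, the core of the GATA motif, and CACGTG, the E-box core that MiT/TFE factors bind.
TFEB upstream start (chr6:41735609-41735858, minus strand): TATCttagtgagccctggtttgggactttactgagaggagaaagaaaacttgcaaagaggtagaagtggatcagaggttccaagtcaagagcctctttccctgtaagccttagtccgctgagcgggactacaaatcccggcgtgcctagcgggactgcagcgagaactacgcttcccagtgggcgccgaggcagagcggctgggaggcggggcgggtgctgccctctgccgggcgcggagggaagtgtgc
TFE3 start (chrX:49043358-49043607, minus strand): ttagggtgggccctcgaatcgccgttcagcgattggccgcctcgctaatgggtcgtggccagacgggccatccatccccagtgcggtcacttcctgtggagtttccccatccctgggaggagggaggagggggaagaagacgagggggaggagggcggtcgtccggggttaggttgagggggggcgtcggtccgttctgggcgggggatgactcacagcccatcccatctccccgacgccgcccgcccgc
MITF upstream start (chr3:69739214-69739463, plus strand): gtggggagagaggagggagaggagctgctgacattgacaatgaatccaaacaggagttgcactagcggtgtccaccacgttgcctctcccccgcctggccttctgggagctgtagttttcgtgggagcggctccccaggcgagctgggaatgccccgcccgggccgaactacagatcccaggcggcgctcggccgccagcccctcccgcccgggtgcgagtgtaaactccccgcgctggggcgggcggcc
MITF downstream start (chr3:69936342-69936591, plus strand): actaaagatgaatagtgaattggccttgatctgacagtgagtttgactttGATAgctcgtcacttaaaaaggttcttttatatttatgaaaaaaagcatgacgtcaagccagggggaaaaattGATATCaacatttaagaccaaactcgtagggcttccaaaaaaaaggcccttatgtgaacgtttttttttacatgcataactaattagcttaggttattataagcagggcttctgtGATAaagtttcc
TFEC upstream start (chr7:116030764-116031013, minus strand): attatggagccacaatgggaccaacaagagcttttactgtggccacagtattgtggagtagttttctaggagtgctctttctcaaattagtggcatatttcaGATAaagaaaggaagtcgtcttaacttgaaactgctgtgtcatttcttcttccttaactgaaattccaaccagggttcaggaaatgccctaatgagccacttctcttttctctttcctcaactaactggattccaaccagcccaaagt
GATA on either strand occurred in 45.6% of the 35116 promoters in the table, AGATAA in 9.17% and CACGTG in 6.34%. Overlapping matches on the strands were each counted. The downstream MITF start, known as that of the melanocyte form, had 4 GATA matches, and the upstream TFEB and TFEC starts had 1 each. The TFEC match lay within the longer AGATAA. The E-box core was in none of the 9 promoters of the 4 genes. A match describes the letters in this window only.

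The strongest region lay inside TFEB (gene ID 7942, chromosome 6, 41683978 to 41736223, minus strand). It ran from 41730039 to 41731774, with its centre 3.49 kb downstream of the nearest listed start, and was called in all 12 libraries. Rank 1 is the highest score of a list. This region ranked 18 and 35 in WT, 3 and 3 in A442M, 2 and 3 in G444E (replicates 1 and 2). In WT-FLAG, A442M-FLAG and G444E-FLAG it ranked 1 in both libraries. It was thus the top peak of all 6 FLAG lists and of no untagged list, and it stood lowest in the WT lists. Of the 10933 regions called in all 12 libraries, 1.68% ranked higher in every FLAG than in every untagged library. The opposite order held for 3.85%. Ranking below all others in both WT libraries, as this region did, was seen in 13.8% of them. A rank is relative to the other peaks of its list, read depth is unknown, and the WT libraries stood apart on unplaced contigs. The order of ranks therefore cannot be read as a change in binding.

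The scores behind these ranks were 585 and 468 in WT, 986 and 800 in A442M, and 945 and 743 in G444E. With the tag they were 1181 and 894 in WT-FLAG, 1183 and 801 in A442M-FLAG, and 1106 and 751 in G444E-FLAG. Replicate 1 had the higher score in each of the 6 groups. The lead over the next peak ran from 751 against 748 in G444E-FLAG replicate 2 to 1183 against 899 in A442M-FLAG replicate 1. Relative to the median score of its own list, the region's score was 23.1 to 31.2 times as high in WT and 36.6 to 57.2 times as high in the other 5 groups. Its peaks were 769 to 1562 bp wide, which put them between the 88.2 and 99.4 percentile of width in their lists.

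In the untagged lists, 1 to 34 regions ranked above it. There were 17 and 34 in WT, 2 and 2 in A442M, and 1 and 2 in G444E. A region inside BTBD9 (chromosome 6, 38306233 to 38309339) was above it in 5 of the 6 untagged lists. Regions inside MARCHF8, a membrane ubiquitin ligase, and MDGA1, a cell adhesion gene, were each above it in 4 lists. All 3 of these regions were called in all 12 libraries.

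The TFEB region was most like the region inside MDGA1 in its ranks, with a root mean square difference of 0.661 in log10 rank over the 12 lists. Next came regions near SP6 (0.711), inside NR6A1 (0.717), inside BTBD9 (0.725) and near ECI2 (0.837). The median over all other regions called in every library was 3.53. The ECI2 region fell as low as rank 944 in a list, while the MDGA1 region stayed between 2 and 10.

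**Figure D1:**
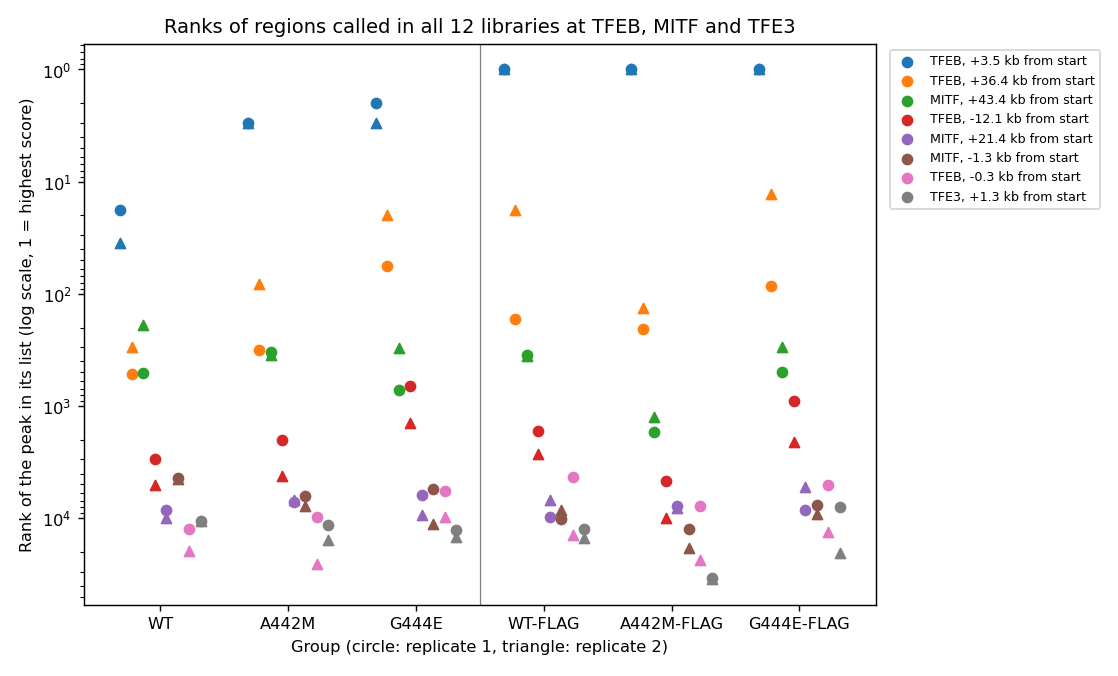
Rank of a region's peak in its own list (log scale, inverted, 1 = highest score) in each group, for the 8 regions called in all 12 libraries that are strongest at TFEB (4), MITF (3) and TFE3 (1). Circles are replicate 1 and triangles replicate 2; the TFEB region at +3.5 kb sits at rank 1 in the 6 FLAG libraries and between 2 and 35 in the untagged ones.

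TFEB held a second high region near its far end (chromosome 6, 41697013 to 41699088, 36.4 kb downstream of the nearest start). It ranked 523 and 296 in WT, 317 and 81 in A442M, 56 and 20 in G444E, 169 and 18 in WT-FLAG, 206 and 134 in A442M-FLAG, and 86 and 13 in G444E-FLAG. Replicate 2 ranked higher than replicate 1 in every group, as in 22.5% of the regions called in all libraries. The G444E forms took the best places in both tag states, apart from WT-FLAG replicate 2.

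Of the 13 TFEB regions, 6 had a peak in every library, a number that 1.22% of protein-coding genes reached. Over all regions 13.8% did. The next strong region lay outside the gene, at -12.1 kb from the nearest TFEB start, where a negative distance is upstream (41747181 to 41748289). The protein-coding gene end nearest to this region was that of PGC. The region's percentile within the lists ran from 76.8 in A442M-FLAG replicate 2 to 97.9 in G444E replicate 1, with a median of 92.9. The percentile is the share of a list's peaks with the same or a lower score.

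The TFEB start sites themselves lay in a merged region, which need not mean a peak over each start in every library. A region from 41733620 to 41735780 contained all 3 listed starts (41735608, 41735060 and 41734401), including the one whose upstream bases are printed above, and was called in all 12 libraries. Of the 22198 listed starts of protein-coding genes, 1.22% lay in such a region and 10.5% in any region. It was of middling score, with ranks of 12614 and 19829 in WT, 9777 and 25738 in A442M, and 5692 and 9781 in G444E. With the tag they were 4336 and 14109 in WT-FLAG, 7754 and 23655 in A442M-FLAG, and 5059 and 13321 in G444E-FLAG. Replicate 1 ranked higher in every group, the opposite of the far-end region, as in 17.3% of the regions called in all libraries. Its peaks were broad for their score: the median width percentile was 99.7 and the median score percentile 62.8. The exception was WT replicate 2, with a highest peak of 247 bp at a width percentile of 25.4. That peak, and the one of 861 bp in WT replicate 1, were too narrow to span all 3 starts.

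The other TFEB regions were weaker or less often called. Regions 10.3 and 28.1 kb downstream of the starts were called in all 12 libraries, at median percentiles of 62.9 and 30.6. A region at 41712604 to 41714212 inside the gene was called in 9 libraries at a median percentile of 16.1. Upstream, 41780704 to 41781258, inside PRICKLE4, was called in 10 libraries and 41779832 to 41780168 in 9, missing both WT and 1 A442M library. The remaining 4 were called in 1 to 7 libraries. The window also holds MDFI, PGC, FRS3 and PRICKLE4, so its regions cannot be assigned to TFEB alone.

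The stretch around TFEB held other high regions. Within 1 Mb of the strongest TFEB region there were 111 regions outside the TFEB window. Of them, 24 (21.6%) were called in all 12 libraries, against 13.8% of all regions. Of these 111, 4 had a median percentile of 99 or more, as did 2 in the TFEB window, against 0.328% of all regions. These were 1 region near FOXP4, 1 near TSPO2 and 2 with no protein-coding gene end within 100 kb. The median percentile of the 111 was 38.4, and that of all regions 32.2.

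**Figure D2:**
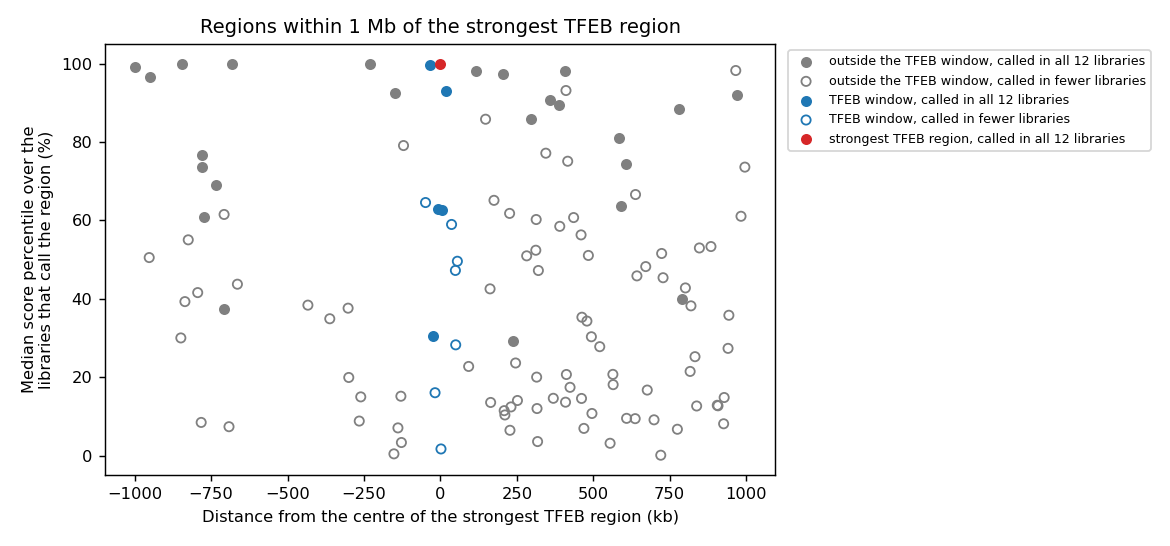
Median score percentile within the lists (vertical axis, %) of each region by its distance in kb from the centre of the strongest TFEB region. Filled points were called in all 12 libraries and open points in fewer; 2 TFEB regions and 4 regions outside the window lie at or above 99.

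MITF (gene ID 4286, chromosome 3, 69739464 to 69968332, plus strand) had 25 regions, a number that 1.7% of protein-coding genes reached. It is a long gene of 229 kb. Per 100 kb of window it had 7.6 regions, against 8.54 for TFEB, 6.11 for TFE3, 2.16 for TFEC and a median of 3.06 over all protein-coding genes. No other protein-coding gene lies in the MITF window. Of the 25 regions, 6 had a peak in every library and 5 in a single library.

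The highest MITF region lay inside the gene, 43.4 kb downstream of the nearest start (69806528 to 69807815). It ranked 510 and 190 in WT, 329 and 351 in A442M, 725 and 303 in G444E, 349 and 360 in WT-FLAG, 1713 and 1244 in A442M-FLAG, and 502 and 301 in G444E-FLAG. Both A442M-FLAG libraries lay below the other 10, and WT replicate 2 was the highest. Regions 21.4 kb downstream (69784572 to 69785833) and -1.3 kb (69762096 to 69762935) from the middle start were next, at median percentiles of 80.5 and 77.7. In log10 rank the highest MITF region was most like a region on chromosome 17 (71188428 to 71190106) that had no protein-coding gene end within 100 kb, at a root mean square difference of 0.142. The others were at chromosome 7, 142507397 (0.17), in PRIM2 near RAB23 (0.176), at chromosome 17, 71186585 (0.18) and inside CADPS2 (0.182), with a median of 1.24 over the regions called in every library.

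The MITF starts were covered in part. The upstream start, at 69739464, lay in a region called in 4 libraries (69738942 to 69739933), at percentiles of 5.43 to 12.3. These were replicate 1 of G444E, WT-FLAG, A442M-FLAG and G444E-FLAG, and no replicate 2 library called it. Of the 5526 regions called in exactly 4 libraries, 20.6% were called in replicate 1 libraries alone. No region covered the middle start at 69763811, where the nearest (69763248 to 69763586) was called in 1 library. The downstream start of the melanocyte form, at 69936592, had no region within 70319 bp in any library, although its printed promoter had the most GATA matches of the 9. The nearest region there (69866017 to 69866273) was called in 3 libraries.

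The other 3 MITF regions called in every library were weaker. They lay at -15.9 kb (69723056 to 69724120), 6.62 kb (69769616 to 69771237) and 28.3 kb (69791458 to 69792799) from the nearest start, with median percentiles of 71.9, 64.8 and 71.3. The last 2 ranked lower in both WT libraries than in all others, as the strongest TFEB region did. That makes 3 of the family's 13 regions called in every library, against 13.8% of all such regions. Regions called in 9 or 10 libraries lay 23.8, 59.5 and 84.3 kb downstream of the middle start, at median percentiles of 21.8, 33.1 and 36.7.

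No region was called between 69866273 and the end of the window 50 kb beyond the gene. The next region on that side began at 70743838, 776 kb past the gene, and was called in 2 libraries.

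Both regions of the family that were called in every library except WT were at MITF. The region at -19.9 kb from the upstream start (69719052 to 69720024) had percentiles of 71.1 and 66.0 in A442M, 77.1 and 61.0 in G444E, and 82.1 and 89.4 in WT-FLAG. In A442M-FLAG they were 95.0 and 91.8, and in G444E-FLAG 75.3 and 64.7. The region at 69797668 to 69798158, 34.1 kb inside the gene, was weaker, with a median percentile of 22.7. Of all regions, 2.61% had this pattern of calls, and 2 of the 52 family regions did. Fisher's exact test on the calls of 8 mutant against 4 WT libraries, tagged and untagged together, gave p = 0.0909 for each. This p follows from the pattern by which the 2 regions were picked and is the smallest possible for 10 calls. It is therefore no test of the pattern. Peaks on unplaced contigs were also most numerous in the untagged WT libraries, and their part in this pattern was not tested.

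**Figure D3:**
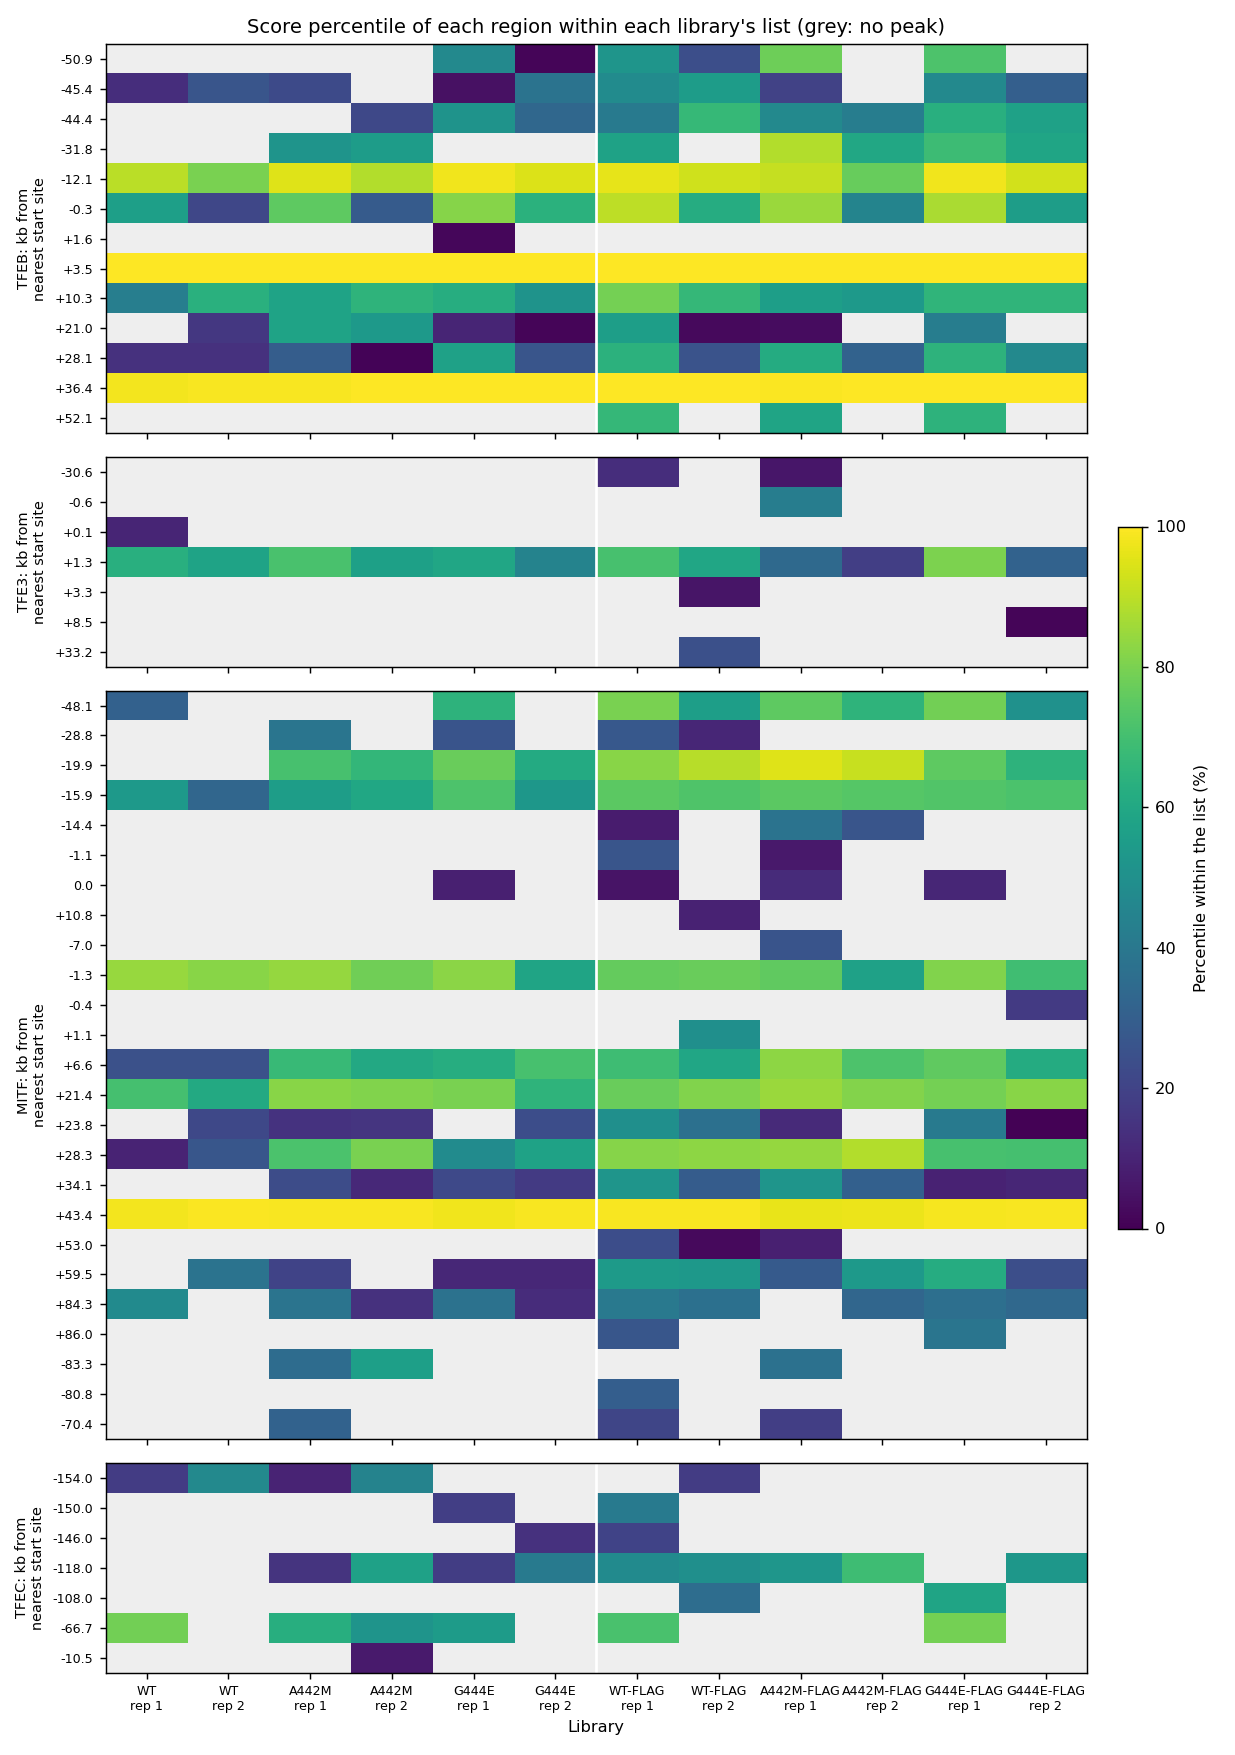
Score percentile within the list (colour, %) of all 52 regions (rows, ordered along each gene from upstream to downstream and labelled by kb from the nearest listed start) in the 12 libraries (columns). Grey marks no peak; the 13 rows filled in all columns are 6 at TFEB, 6 at MITF and 1 at TFE3, and TFEC has none.

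TFE3 (gene ID 7030, chromosome X, 49028726 to 49043357, minus strand) had 1 region called in all 12 libraries and 6 called in 1 or 2. The shared region (49041608 to 49042483) lay inside the gene, 1.31 kb downstream of the start. Its percentiles were 63.2 and 58.0 in WT, 71.3 and 57.0 in A442M, 59.3 and 44.9 in G444E, and 70.9 and 59.0 in WT-FLAG. In A442M-FLAG they were 34.0 and 18.4, and in G444E-FLAG 80.2 and 31.3. By percentile, replicate 1 was higher in each group. By rank this did not hold in WT, where replicate 2 ranked 10595 and replicate 1 10629. The lowest percentiles were those of both A442M-FLAG libraries and of G444E-FLAG replicate 2. The start itself, at 49043357, lay in a region called in WT replicate 1 alone, at a percentile of 10.4. The window also holds GRIPAP1, CCDC120, PRAF2 and WDR45. With equal lists, each kept to its 25248 highest scores, no TFE3 region was called in every library. In its ranks the shared region was most like regions near SHB (root mean square difference 0.0801 in log10 rank) and near FAM72B (0.0811). Next came regions inside HS2ST1 (0.0841) and inside GGA2 near EARS2 (0.0912), against a median of 0.416.

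TFEC (gene ID 22797, chromosome 7, 115935152 to 116159896, minus strand) was the member with the fewest calls for its length. None of its 7 regions was called in all 12 libraries, whereas 40.6% of protein-coding genes had such a region. Its most often called region (116148586 to 116149026) had a peak in 9 libraries and in neither WT library. Percentiles there were 15.1 and 57.3 in A442M, 18.3 and 40.9 in G444E, 47.7 and 49.7 in WT-FLAG, and 52.7 and 69.0 in A442M-FLAG, and 52.9 in G444E-FLAG replicate 2. Replicate 2 was the higher in each of the 4 groups where both libraries called it.

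The TFEC region with the highest median percentile, 66.9 (116097328 to 116097656), was called in 6 libraries, 5 of them replicate 1. A region before the gene (116184213 to 116184622) was called in both WT and both A442M libraries, in WT-FLAG replicate 2 and in no other. The WT and A442M libraries had the most peaks on unplaced contigs, while WT-FLAG replicate 2 had 18. A link between contig peaks and these calls was not tested. The nearest region was 51862 bp from the start printed above and 10330 bp from the downstream start. The gene span reaches beyond the upstream listed start, so regions labelled upstream of it can still lie inside the gene. Just outside the window, 58.1 kb from the gene, a region was called in all 12 libraries at a median percentile of 97.3, and the region just inside that edge was the one called in 5.

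Whether the tag changed how many regions a window held was asked relative to list length. TFEB windows had 2.88 ± 0.533 called regions per 10000 regions of the list in WT, 2.45 ± 0.154 in A442M and 3.72 ± 0.116 in G444E (SD, n = 2 each). With the tag the values were 2.80 ± 0.0813, 2.14 ± 0.356 and 3.06 ± 0.0247. G444E had the highest value in each tag state and A442M the lowest. Over the 6 FLAG libraries the mean was 2.67 and over the 6 untagged 3.01, against a pooled replicate SD of 0.275. The difference was not called (exact permutation test, two-sided, labels exchanged within genotype, p = 0.0741, Benjamini-Hochberg adjusted p = 0.305, FLAG higher in 2 of 6 same-numbered pairs). It changed sign with equal lists, with a score of at least 10 and with calls that cover 50% of a region. The counts before division were 7 and 8 in WT, 9 and 9 in A442M, and 11 and 10 in G444E (replicates 1 and 2). With the tag they were 12 and 10, 12 and 8, and 12 and 9. Each FLAG list was longer than the untagged list of the same form and number. A region called in every library adds less to the value in a longer list.

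MITF windows had 3.06 ± 0.281 in WT, 3.38 ± 0.363 in A442M and 4.24 ± 0.0831 in G444E, then 4.57 ± 0.265, 3.21 ± 0.534 and 3.99 ± 0.569 in the same forms with the tag (SD, n = 2 each). WT was the lowest of the 6 groups without the tag and the highest with it. The pooled tag difference of 0.367 was not called (exact permutation p = 0.306, adjusted p = 0.595, FLAG higher in 3 of 6 pairs). It was 1.54 with calls that cover 50% of a region (exact permutation p = 0.0185, adjusted p = 0.199), and 0.157 with a 10 kb window. TFE3 had 0.511 in FLAG and 0.396 in untagged libraries (exact permutation p = 0.324, adjusted p = 0.608), a difference that changed sign with a score of at least 10, with equal lists and with a 10 kb window. TFEC had 0.510 and 0.798 (exact permutation p = 0.148, adjusted p = 0.428), and the sign changed with a score of at least 10.

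Of 17718 genes with a region, 0 passed the adjusted threshold for the tag (0.0%), and 3188 had an unadjusted permutation p of 0.05 or less (18.0%). The smallest p that the permutations allow is 0.00926, and 834 genes reached it where 3282 were needed for a call. For the mutants 67 genes reached the smallest p of 0.00444, where 1575 were needed.

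The mutants were set against WT in the same way. TFEB had 2.84 per 10000 in mutant and 2.84 in WT libraries (exact permutation p = 1.0). For MITF these were 3.71 and 3.81 (p = 0.8, adjusted p = 0.994) and for TFEC 0.619 and 0.724 (p = 0.587, adjusted p = 0.966), all by exact permutation within the tag state. The TFE3 window had 0.378 in mutants and 0.605 in WT, lower in 4 of 4 pairs of mutant mean and WT with the same tag state and number (exact permutation p = 0.0756, adjusted p = 0.796). These values rest on 1 to 3 called TFE3 regions per library. In untagged replicate 2, WT, A442M and G444E each had 1 call. That pair therefore differed by list length alone (0.407 in WT, 0.284 in A442M and 0.38 in G444E). With 50% cover the TFE3 difference went from -0.227 to -0.469 (exact permutation p = 0.0133, adjusted p = 0.715). Over all genes 0 passed (0.0%) and 1009 had an unadjusted permutation p of 0.05 or less (5.69%).

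**Figure D4:**
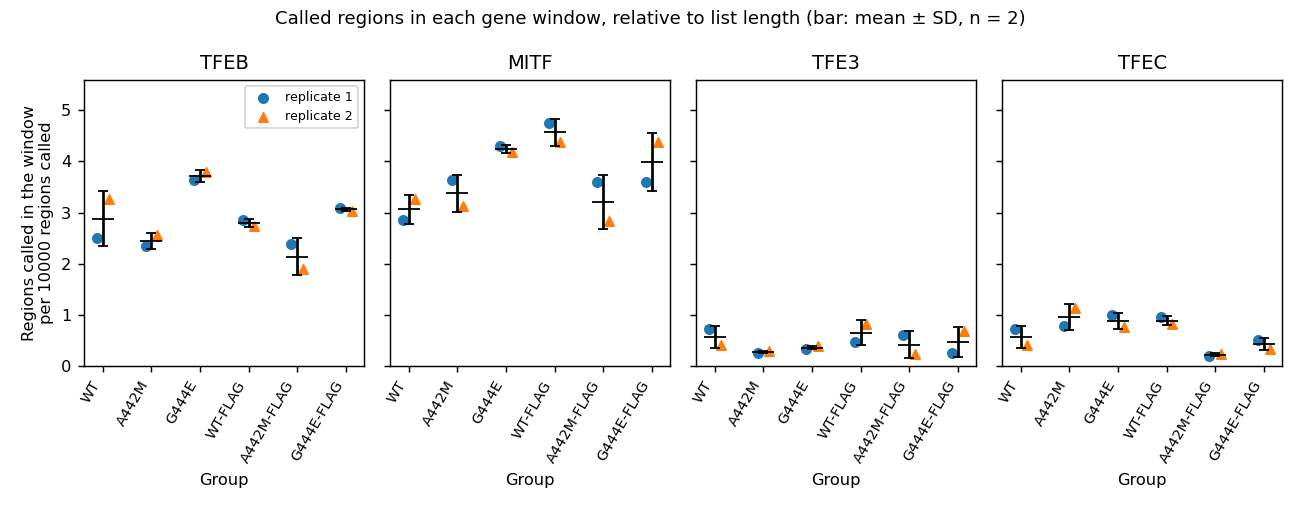
Called regions in the window of each gene per 10000 regions called in the library (vertical axis) in the 6 groups; circles are replicate 1, triangles replicate 2, bars the mean and SD (n = 2). TFEB ranges from 1.89 to 3.80 and MITF from 2.84 to 4.76, and FLAG and untagged libraries overlap in all 4 panels.

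Single regions were tested as well. In Fisher's exact test of 6 FLAG against 6 untagged libraries, 0 of 11777 testable regions passed after Benjamini-Hochberg adjustment (0.0%), and 1521 had an unadjusted p of 0.05 or less (12.9%). Only 4 of the 52 family regions had a number of calls that can reach a Fisher p of 0.05. None of these was among the 1521, and the rest could not be. The family count of 0 became 1 or 2 under some alternatives. It was 1 with a score of at least 10, 2 with 50% cover and 1 with the replicate block. Leaving out WT replicate 1, or G444E replicate 1, also gave 1. The lowest Fisher's exact p was 0.0606, at the MITF region -48.1 kb from the upstream start (69691096 to 69691563), called in 6 of 6 FLAG and 2 of 6 untagged libraries. This is the smallest p that a region with 8 calls can have, so the region was not testable. With the replicate number as a block, the exact permutation p was 0.05. For 8 mutant against 4 WT libraries, 0 of 26654 testable regions passed (0.0%) and 83 had an unadjusted Fisher p of 0.05 or less (0.311%). None of the 83 was in the family, where 14 of the 52 regions were testable. A call by tag needed 510 regions at the smallest p of 0.00216, and 246 reached it.

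Pairs of groups were compared by regions that both libraries of a group called and neither of the other did, as a count with no test. Untagged A442M had 5 family regions that WT lacked (16.1% of the 31 called in either, against 11.0% of all regions), and WT had 0 that A442M lacked (1.08% of all regions). The 5 were 3 at MITF, 1 at TFEB (41767201 to 41767696) and 1 at TFEC. G444E also had 5 that WT lacked (15.6%, against 8.72% of all regions): 2 at TFEB, 2 at MITF and 1 at TFEC. The counts for A442M and G444E share the WT libraries, and 3 of the regions were the same.

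WT-FLAG had 7 family regions that WT lacked (15.6%, against 16.8% of all regions), 4 of them at MITF, and WT had 0 that WT-FLAG lacked (4.34% of all regions). Of 47 family regions, A442M-FLAG had 0 that WT-FLAG lacked (7.15% of all regions). WT-FLAG had 1 that A442M-FLAG lacked (2.13%, against 1.89% of all regions), the MITF region at 69710447. Of 46, G444E-FLAG had 0 that WT-FLAG lacked (0.659% of all regions), and the opposite count was 2, both at MITF (4.35%, against 3.11% of all regions). Of 40, A442M-FLAG had 1 that G444E-FLAG lacked (2.5%, against 11.0% of all regions), at MITF, and the opposite count was 0 (1.38% of all regions). Each of these counts was 7 or fewer, and several shares were near those of all regions.

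In the remaining pairs the family's shares were also set beside those of all regions. WT had 1 of 32 that G444E lacked (3.12%, against 6.27%), at TFEC. Of 35, A442M had 3 that G444E lacked (8.57%, against 8.28%), 1 each at TFEB, MITF and TFEC, and G444E had 1 that A442M lacked (2.86%, against 1.38%), at TFEB. Of 39, A442M-FLAG had 2 that A442M lacked, at MITF (5.13%, against 12.5%), and A442M had 2 that A442M-FLAG lacked, at TFEC (5.13%, against 4.71%). Of 36, G444E-FLAG had 1 that G444E lacked (2.78%, against 3.57%), at TFEB, and the opposite count was 0 (against 0.7%).

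Other genes of the pathway were described from 4 lists. Of 23 regulators around mTORC1, the Rag GTPases and folliculin, 9 had a region called in all 12 libraries within 50 kb (39.1%, against 40.6% of all protein-coding genes). They included RPTOR, the substrate-binding subunit of mTORC1, and FNIP2, a folliculin partner, with 3 such regions each, and RHEB, the GTPase that activates mTORC1, with 2. The highest region in the RHEB window (chromosome 7, 151566477 to 151567785) had a median percentile of 99.7. A region of such a window can lie at a neighbouring gene. PPP3CA, a calcineurin subunit that dephosphorylates TFEB, had 19 regions and 1 of them in all libraries.

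Of 33 target genes of lysosome and autophagy, 16 had a region called in all libraries (48.5%). PPARGC1A, a coactivator of mitochondrial genes, had 5 such regions, and LAMP2, a lysosomal membrane protein, had 3. Among 19 other basic helix-loop-helix leucine zipper factors it was 8 (42.1%), with 2 at MXI1 and 1 each at MYC and MLX. Among 15 melanocyte targets of MITF it was 2 (13.3%): MLANA with 3 and PMEL with 1.

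The median number of regions per gene was 6 in each of the first 3 lists and 3 in the melanocyte list, against 4 over all protein-coding genes. No gene of any list passed the adjusted test by tag or mutation (exact permutation over samples). At an unadjusted permutation p of 0.05 or less by tag, 5 of 31 measured target genes were higher with FLAG and 2 lower, against 18.0% of all genes in either direction. Among the regulators it was 1 higher and 1 lower of 23.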

How the data were processed

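The build hg38 and the tools FastQC and MACS2 2.1.4 are named in the submitters' processing notes. Aligner, control, filters and read depth: not given in the sources used here. The deposited score per peak is the authors' own value, at least 5.00 in every list, and served for ranks and thresholds inside each list alone. Of the peak numbers up to the highest, 89.1% to 92.0% were present. A separate list was deposited for each library.

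Lists (433307 peaks) were merged in Python 3.11.15 with numpy 2.4.6, pandas 2.3.3 and scipy 1.17.1. Genes and promoters came from RefSeq tables (GRCh38.p14, with the same primary chromosomes as hg38); exons were not assigned. Coordinates are 1-based. Fisher and permutation tests ran over all regions or genes, with Benjamini-Hochberg adjustment, a threshold of 0.05, and were tested on simulated data. Named were regions called in 8 or more libraries, the 3 highest per member, the 5 most like regions, and up to 4 genes per list; further ones were chosen after their values were seen, and a few items under this rule are not reported here. Members and lists were chosen with earlier results of these data known.

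The labels do not say what replicate numbers share. The difference between replicates 1 and 2 correlated across regions between all 15 pairs of groups (0.113 to 0.290), so same-numbered libraries were treated as paired in the replicate block; this pairing comes from the data. Alternatives were a score of at least 10, equal lists of 25248 peaks, calls covering 50% of a region, a 10 kb window, a replicate block and each library left out. No interval on counting error was computed.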

Additional observations from a re-analysis of the deposited data

Results flagged for a closer look

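In 5 cases both same-number pairs of libraries moved one way under a contrast in one setting and the opposite way in another. The differences were not tested. For MITF, the tag effect on regions per 10000 was 1.52 in WT and -0.167 in A442M, a difference of 1.68. For TFEC, with 1 to 4 called regions per library, the tag effect was 0.326 in WT, -0.74 in A442M and -0.451 in G444E. The WT effect exceeded these by 1.07 and 0.777. The same libraries give the same differences when read as mutation effects: A442M minus WT was 0.397 untagged and -0.669 with the tag (1.07), and G444E minus WT was 0.315 and -0.462 (0.777). Untagged WT enters all 5, and its libraries had the most peaks on unplaced contigs.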

How the results depend on the processing

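The number of family regions stayed within 1.5 times of 52 under every alternative, and between 49 and 52 with 1 library left out. Counts per gene moved more: TFE3 had 3 regions in place of 7 with a score of at least 10 and 1 with equal lists, and with a 10 kb window TFEB had 8 in place of 13 and TFEC 4 in place of 7. No region or gene passed an adjusted test by tag or mutation in any setting, also with the replicate block, which changed no call. With the block a call of a gene by tag needed 11074 genes at the smallest permutation p of 0.0312, and 2025 reached it. By mutation 4375 were needed at the smallest permutation p of 0.0123, and 241 reached it. The block thus left little room for a call. The strongest TFEB region kept rank 1 in all 6 FLAG lists with a score of at least 10 and with equal lists. It also did so without the untagged WT, or the untagged WT and A442M, libraries, 2 settings chosen after seeing the data. None of these settings can change the top peak of a FLAG list, so they are no check of that rank. With calls covering 50% of a region the strongest TFEB region was called in 10 libraries. In that setting TFEB and MITF had 1 region each in every library in place of 6, and TFE3 0 in place of 1, as with equal lists. The TFEB tag difference was -0.452 with a 10 kb window, at the smallest permutation p possible (0.00926, adjusted p = 0.186). Of the 8 regions in that window, 5 were called in every library, and such regions add less to the value in the longer FLAG lists. The TFEB mutation difference was 1.04 with 50% cover (permutation p = 0.151). Tag differences in regions per 10000 that changed sign were, for TFEB, 0.14 (score of at least 10), 0.714 (equal lists) and 0.437 (50% cover); for TFE3, -0.0117 (score), -0.137 (equal lists, permutation p = 0.0185, adjusted p = 0.165) and -0.0037 (10 kb); for TFEC, 0.0287 (score). Mutation differences that did were -0.00445 (equal lists) and -0.145 (10 kb) for TFEB, 0.152 (equal lists) for MITF and 0.117 (10 kb) for TFEC. With 1 library left out, the mutation difference ran from -0.134 to 0.143 for TFEB and from -0.427 to 0.205 for MITF. MITF turned positive without WT-FLAG replicate 1, WT-FLAG replicate 2 or A442M-FLAG replicate 2. The cause of these changes was not tested. Unknown depth limits every absence of a peak.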

Other observations

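Chromosome 6 held many of the top regions beside TFEB, a count made after the ranks were seen. Of the 100 regions called in all libraries with the best median rank, 20 lay on chromosome 6, 18 of them in its first 50 Mb, where TFEB lies. Of all 10933 such regions, 7.25% were on chromosome 6. Among the top 1000 it was 9.9%.

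Regions over start sites were called more often in replicate 1 libraries, as the region at the upstream MITF start was. The TFEB start region had 6 calls in each replicate. Replicate 1 also had the longer list in every group, and the part of list length in these counts was not tested. Of 1995 regions over a listed start of a protein-coding gene, 68.5% had more calls in replicate 1 than in replicate 2 libraries and 14.1% fewer. Of the 77004 regions elsewhere these shares were 45.0% and 25.7%. By rank the shares were close: of the 217 start-site regions called in all libraries, replicate 1 ranked higher in every group in 18.0% and replicate 2 in 17.1%. This too was counted after the family's values were seen, and it is a description without a test.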
